A study of Homo sapiens with 30 samples.

Results

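Transcripts of 9 genes of blood clotting and clot lysis were followed in hCMEC/D3 cells, an immortalised human line derived from the endothelium of brain capillaries: F3, THBD, TFPI, VWF, PROCR, SERPINE2, PLAT, PLAU and PLAUR. They were taken by symbol from a table of 63138 genes, each symbol matched 1 row, and all 9 passed the low-count filter of every fit. The 30 libraries form 10 groups of 3, all under 1 batch number in the labels, and cells were sampled at 12 h. Of the directly treated cells, those named Control had only serum-free medium. TNF cells had the cytokine tumour necrosis factor (25 ng/mL), IL1b cells the cytokine interleukin 1 beta (10 ng/mL), C5a cells a fragment of complement (50 ng/mL) and Epinephrine cells the hormone of that name (200 nM). The vesicle groups carry the prefix EV: cells of this line were given extracellular vesicles enriched from the supernatant of cells treated in the way that the rest of the name says, EV-Control included. The vesicle dose is not given in the sources used here, and nothing in the labels says that the libraries of a group came from separate cultures, so p-values measure the spread between these libraries, which may be technical.

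Clotting starts when tissue factor, the product of F3, meets factor VIIa, and TFPI encodes the inhibitor of that complex. On resting endothelium thrombomodulin (THBD) and the endothelial protein C receptor (PROCR) turn thrombin towards activation of the anticoagulant protein C, while von Willebrand factor (VWF) tethers platelets. Clots are dissolved by plasmin, which the tissue activator (PLAT) and urokinase (PLAU, bound by its receptor PLAUR) release from plasminogen, and SERPINE2 encodes protease nexin 1, an inhibitor of thrombin and of both activators. In GENCODE 29 on GRCh38 the genes lie at 1:94529225-94541800 (F3, ENSG00000117525), 20:23045633-23049741 (THBD, ENSG00000178726), 2:187464230-187565760 (TFPI, ENSG00000003436), 12:5948874-6124770 (VWF, ENSG00000110799), 20:35172073-35216240 (PROCR, ENSG00000101000), 2:223975112-224039319 (SERPINE2, ENSG00000135919), 8:42175233-42207724 (PLAT, ENSG00000104368), 10:73909177-73917497 (PLAU, ENSG00000122861) and 19:43646095-43670547 (PLAUR, ENSG00000011422). Exons of TFPI, PROCR and PLAU share 118, 218 and 916 bases with genes of the opposite strand, and whether reads were counted by strand is not given in the sources used here. Of these partners, CALCRL-AS1 beside TFPI and C10orf55 beside PLAU reached group means of at most 4.72 and 2.33 CPM (counts relative to the scaled library size). VWFP1, a pseudogene that resembles part of VWF, had at most 1 count in any library, but reads shared between the copies cannot be assigned with certainty.

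Libraries held 16643961 to 22112326 counts. Replicates stood further apart in some groups than in others: the chi-square per gene between replicates, which is near 1 for sampling noise alone, ran from 2.04 to 12.9, and it was highest for Epinephrine 2 against Epinephrine 1 (12.9) and 3 (10.1) and for EV-Control 1 against 3 (10.1). The EV-Control libraries enter every vesicle comparison, and values without 1 of them are given where a call turns on it. Of 14 endothelial markers 13 reached 1 CPM in every group (EMCN reached at most 0.58 CPM), and their summed level was 1960 to 2020 CPM in Control, 1450 to 1500 in IL1b, 1530 to 1590 in C5a and 1390 to 1460 in EV-Control. Among markers of other cells, those of pericytes and smooth muscle summed to 373 to 424 CPM in Control, 466 to 487 in TNF and 322 to 352 in Epinephrine, and to 420 to 440 in EV-Control and 494 to 513 in EV-Epinephrine, led by CSPG4. The epithelial list, nearly all KRT18 and KRT8, summed to 259 to 282 CPM in Control, 160 to 173 in TNF and 350 to 362 in C5a. The platelet markers PF4, PPBP and GP9 were at 0, and the platelet list summed to at most 3.17 CPM. The part of these marker shifts in the results was not tested. In bulk RNA, fewer cells that express a gene and less RNA of it per cell cannot be told apart.

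Per kilobase of exon, PLAU was the most abundant of the 9 in Control cells, at 78.8 ± 3.17 CPM per kb (mean ± SD, n = 3 here and below), and SERPINE2 the least, at 1.91 ± 0.31. TFPI (22.7 ± 0.37) and PROCR (21.7 ± 1.00) followed PLAU, and their libraries overlapped. PLAT (17.4 ± 0.62), THBD (11.5 ± 0.09), PLAUR (8.99 ± 0.50), VWF (6.15 ± 0.27) and F3 (4.05 ± 0.26) came next without overlap. In TNF cells SERPINE2 reached 24.0 ± 0.82 CPM per kb and F3 15.9 ± 1.43. The length used was that of all annotated exons of a gene merged, not of the transcripts expressed, and the order between genes depends on it. Without this scaling, Control cells held more TFPI (266 CPM) than PLAU (233 CPM) and less F3 (11.6 CPM) than SERPINE2 (17 CPM). All later levels are CPM, compared only within a gene.

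**Figure D1:**
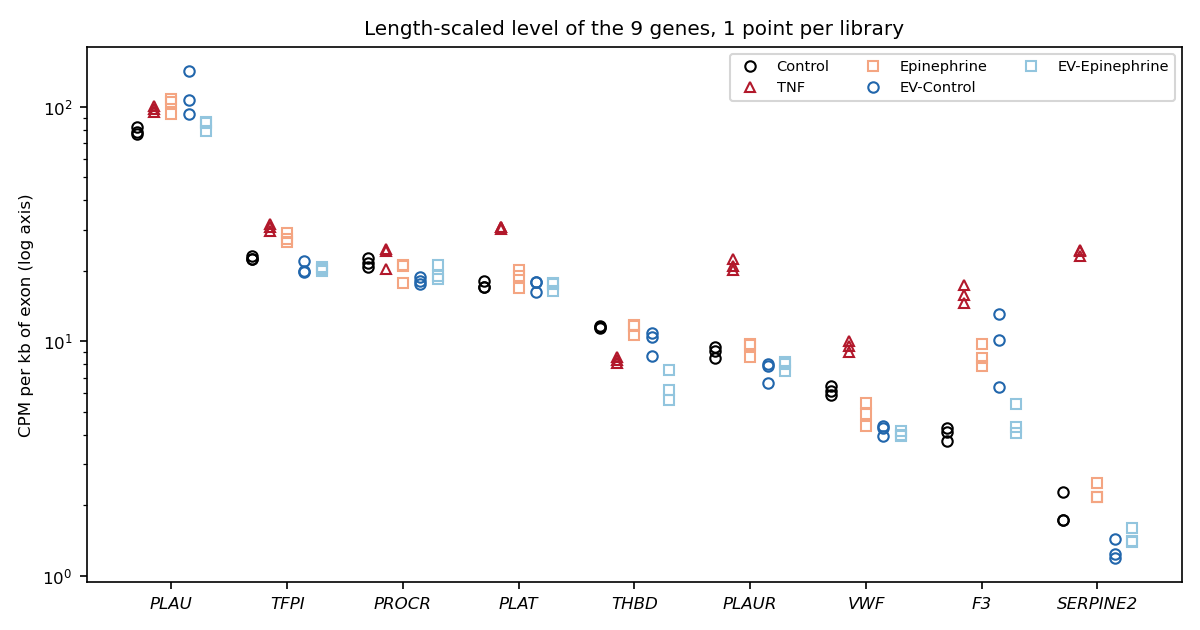
Level of the 9 genes in CPM per kb of exon (log axis), 1 point per library, in 5 of the 10 groups; genes are ordered by their Control mean. SERPINE2, last in Control cells at 1.91, rises to 24.0 in TNF cells.

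F3 rose under TNF and epinephrine, fell under C5a, and was lower with vesicles of epinephrine-treated cells than with control vesicles. Its Control libraries held 11.9, 10.8 and 12.3 CPM. The TNF libraries held 41.9, 45.5 and 50.1 CPM, all above every other library of the series. This was a 3.94-fold rise (log2 1.98, SE 0.10, edgeR adjusted p = 5.85e-19). Epinephrine libraries held 24.4, 22.6 and 28.1 CPM, with no overlap with Control. The rise was 2.17-fold (log2 1.12, SE 0.10, edgeR adjusted p = 1.19e-10). C5a libraries, at 7.45, 9.47 and 8.19 CPM, were the lowest of the series and lay below Control (log2 -0.47, SE 0.12, edgeR adjusted p = 0.00271). That call was lost when all 30 libraries shared the fit (edgeR adjusted p = 0.0832). IL1b libraries, at 12.5, 12.7 and 12 CPM, overlapped Control and did not pass the test.

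Cells given control vesicles held 37.6, 29.1 and 18.5 CPM of F3, the widest spread of any group, and all 3 lay above Control. The difference was 2.43-fold (log2 1.28, SE 0.17, edgeR adjusted p = 4.77e-06), with an adjusted p of 0.0507 in a fit of only these 6 libraries. EV-Epinephrine libraries held 11.7, 12.4 and 15.5 CPM and lay below all EV-Control libraries (log2 -1.10, SE 0.22, edgeR adjusted p = 0.0046). In a fit of only these groups the adjusted p was 0.104. EV-TNF libraries held 18.7, 20.6 and 18 CPM, EV-IL1b libraries 17.5, 17.1 and 18.2, and EV-C5a libraries 22.7, 19.4 and 19.8. None of these 3 passed the test against EV-Control. Each passed it without EV-Control 3, with log2 differences of -0.80 (EV-TNF, edgeR adjusted p = 1.74e-08), -0.91 (EV-IL1b, 5.27e-10) and -0.69 (EV-C5a, 1.24e-05). These are the largest falls among the fits that left out 1 library. The smallest were -0.314 (EV-TNF), -0.432 (EV-IL1b) and -0.202 (EV-C5a), so the size depends on which library is left out. EV-TNF and EV-IL1b also passed when all 30 libraries shared the fit (edgeR adjusted p = 0.0232 and 0.00598). In order of level the groups ran TNF, EV-Control, Epinephrine, EV-C5a, EV-TNF, EV-IL1b, EV-Epinephrine, IL1b, Control and C5a. Neighbours overlapped except at the step below TNF, between EV-IL1b and EV-Epinephrine, and between Control and C5a.

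The F3 promoter is shown because F3 ranged 5.48-fold between group means and its window holds AP-1 and kappaB core matches. It is the RefSeq window of GRCh38.p14, 1:94541710-94542009, minus strand, of 250 bases before the start and 50 after it. Capitals mark AP-1 (TGANTCA), whose matches begin at -223 and -210 counted from the start as 0, and a kappaB core (GGANTTTCC) at -187, a pattern added after the window had been seen.
F3: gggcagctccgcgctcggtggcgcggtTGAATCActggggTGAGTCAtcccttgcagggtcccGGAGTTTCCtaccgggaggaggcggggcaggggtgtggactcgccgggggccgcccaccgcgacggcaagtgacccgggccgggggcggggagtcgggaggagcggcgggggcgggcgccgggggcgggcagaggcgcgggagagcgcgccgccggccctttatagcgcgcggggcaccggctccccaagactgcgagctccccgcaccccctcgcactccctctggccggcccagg
AP-1 matches lay in 2 of the 8 member windows and in 7.71% of all 35116 windows of this length. The kappaB core lay in 1 of 8 and in 1.64% of all windows. The longer kappaB consensus matched no member window, against 11.3% of all. Both strands were searched, the marked matches do not overlap each other, a KLF box (CACCC) match at -213 overlaps the AP-1 match at -210, and a match is a string of letters, not a bound site.

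TFPI, the inhibitor of the tissue factor pathway, rose under TNF, IL1b and epinephrine and fell under C5a. Control libraries held 263, 264 and 271 CPM, and IL1b libraries, the highest group, 373, 376 and 373. IL1b raised it 1.42-fold (log2 0.50, SE 0.04, edgeR adjusted p = 3.64e-12). TNF libraries, at 362, 371 and 348 CPM, all lay above Control (log2 0.44, SE 0.04, edgeR adjusted p = 4.88e-11). Epinephrine libraries, at 321, 309.6 and 338 CPM, did so too (log2 0.29, SE 0.04, edgeR adjusted p = 2.02e-06). C5a libraries, at 234, 235 and 233 CPM, lay below Control (log2 -0.18, SE 0.04, edgeR adjusted p = 0.00212). The 5 vesicle groups had means from 224 to 240.2 CPM and no vesicle comparison with EV-Control passed the test, though EV-TNF did without EV-Control 3 (log2 -0.13, edgeR adjusted p = 0.0482). EV-Control lay below Control (log2 -0.15, SE 0.04, edgeR adjusted p = 0.00757), a call lost without EV-Control 3 (edgeR adjusted p = 0.0732) or EV-Control 2 (0.0687). In the order of levels IL1b, TNF, Epinephrine and Control did not overlap, and all other groups lay below Control and overlapped their neighbours.

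THBD was lower than its control under both cytokines and C5a and in 3 of the 4 vesicle comparisons. Control libraries held 47, 47.3 and 47.7 CPM, the highest group mean of the series. TNF libraries held 34.2, 35.3 and 33.4 CPM, all below Control (log2 -0.47, SE 0.07, edgeR adjusted p = 2.48e-07). IL1b libraries, at 36.4, 33.9 and 33.4 CPM, also lay wholly below Control (log2 -0.45, SE 0.07, edgeR adjusted p = 6.86e-07). C5a libraries held 41.1, 39.2 and 38 CPM and also lay below Control (log2 -0.25, SE 0.06, edgeR adjusted p = 0.00361). Epinephrine libraries, at 47.6, 48.4 and 43.7 CPM, overlapped Control and did not pass.

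Among cells given vesicles, EV-Control libraries held 42.8, 44.6 and 35.6 CPM of THBD. EV-Epinephrine libraries held 31, 25.6 and 23.1 CPM, the lowest group mean, all below EV-Control (log2 -0.62, SE 0.08, edgeR adjusted p = 9.62e-08). EV-TNF (31.6, 31.2 and 31.5 CPM) and EV-IL1b (29.1, 30.2 and 32.7 CPM) also lay below every EV-Control library. Their log2 differences were -0.39 (SE 0.08, edgeR adjusted p = 0.000463) and -0.42 (SE 0.08, edgeR adjusted p = 0.000147). EV-C5a libraries, at 33.8, 33.9 and 33.8 CPM, did not overlap EV-Control but did not pass (log2 -0.27, edgeR adjusted p = 0.303), and passed without EV-Control 3 (edgeR adjusted p = 0.00803). EV-Control itself lay below Control (log2 -0.21, SE 0.07, edgeR adjusted p = 0.0321), and that call was lost without EV-Control 3 (0.355) and without any 1 of the Control libraries. Down the order of levels, Control, Epinephrine, EV-Control and C5a overlapped in turn, IL1b lay below C5a, and EV-TNF lay below EV-C5a.

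PROCR, the partner of thrombomodulin, varied least of the 9, by 1.28-fold between the highest and the lowest group mean. Its libraries ran from 29.8 to 42 CPM over the whole series, and in the order of group means every group overlapped its neighbours. The direct stimuli, IL1b against TNF and the vesicle comparisons gave no PROCR call. EV-Control libraries held 30.7, 31.8 and 29.8 CPM against 36.7, 38.6 and 35.2 in Control, without overlap (log2 -0.26, SE 0.08, edgeR adjusted p = 0.0107). The adjusted p was 0.0519 without EV-Control 3 and 0.0745 without Control 2.

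VWF rose under TNF, while each other direct stimulus lowered it. Control libraries held 66.8, 61.2 and 63.7 CPM, and TNF libraries 99.5, 93.4 and 104, above all other groups. The rise was 1.55-fold (log2 0.63, SE 0.06, edgeR adjusted p = 1.62e-10). C5a libraries, at 50.5, 49.4 and 50.6 CPM, lay below Control (log2 -0.34, SE 0.07, edgeR adjusted p = 0.00021). Epinephrine libraries, at 57, 45.1 and 50.8 CPM, lay below it too (log2 -0.32, SE 0.07, edgeR adjusted p = 0.000426). IL1b libraries held 55.9, 56 and 58.4 CPM, below Control by a smaller amount (log2 -0.16, SE 0.07, edgeR adjusted p = 0.0416). The IL1b call was lost when Control 1 (edgeR adjusted p = 0.221), Control 3 (0.073) or any 1 of the IL1b libraries was left out, with DESeq2 (adjusted p = 0.0546) and without a low-count filter (0.0683).

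Vesicles of cytokine-treated cells went with higher VWF than control vesicles. EV-Control libraries held 45.4, 44.4 and 40.9 CPM, all below Control (log2 -0.55, SE 0.07, edgeR adjusted p = 1.38e-07). EV-TNF libraries, at 62.3, 57.3 and 56.1 CPM, lay above EV-Control (log2 0.43, SE 0.08, edgeR adjusted p = 0.000231). EV-IL1b libraries, at 69.3, 58.2 and 51 CPM, did as well (log2 0.45, SE 0.08, edgeR adjusted p = 0.000123). These 2 groups overlapped Control, so that in the order of levels Control, EV-IL1b, EV-TNF, IL1b, Epinephrine and C5a overlapped in turn. EV-C5a (42.6, 41.2 and 37.6 CPM) and EV-Epinephrine (41.1, 43.2 and 41.5 CPM) overlapped EV-Control and did not pass.

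SERPINE2 showed the largest change of the 9. Control libraries held 15.3, 15.4 and 20.2 CPM, and TNF libraries 217, 219 and 205. TNF raised it 12.6-fold (log2 3.65, SE 0.07, edgeR adjusted p = 5.04e-31). IL1b libraries held 175, 165 and 168 CPM, 10.1-fold above Control (log2 3.33, SE 0.07, edgeR adjusted p = 3.81e-29). Both cytokine groups lay above all other libraries, which stayed at or below 22.1 CPM, and they did not overlap each other. Epinephrine libraries, at 19.3, 22.1 and 19.3 CPM, overlapped Control but passed the test (log2 0.26, SE 0.08, edgeR adjusted p = 0.0177), a call lost without Control 1 (0.129), Control 2 (0.137) or Epinephrine 2 (0.0674). C5a libraries (14.9, 14.3 and 15.5 CPM) did not pass. EV-Control libraries held 11, 10.6 and 12.8 CPM, below Control (log2 -0.56, SE 0.10, edgeR adjusted p = 1.15e-05). The other vesicle groups ran from 10.2 to 15.7 CPM and gave no call against EV-Control, EV-IL1b included (log2 0.28, edgeR adjusted p = 0.105), which passed without EV-Control 3 (0.0426). Below IL1b, neighbouring groups overlapped from Epinephrine to EV-Control.

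A SERPINE2 window is shown beside that of F3 because the gene that rose most has neither an AP-1 nor a kappaB match in either of its 2 RefSeq windows. The downstream one spans 2:224031429-224031728 of GRCh38.p14, minus strand, and has no capitals because only AP-1 and kappaB matches are marked so; it does hold an ETS match at -71 and an Sp1 match at -50.
SERPINE2: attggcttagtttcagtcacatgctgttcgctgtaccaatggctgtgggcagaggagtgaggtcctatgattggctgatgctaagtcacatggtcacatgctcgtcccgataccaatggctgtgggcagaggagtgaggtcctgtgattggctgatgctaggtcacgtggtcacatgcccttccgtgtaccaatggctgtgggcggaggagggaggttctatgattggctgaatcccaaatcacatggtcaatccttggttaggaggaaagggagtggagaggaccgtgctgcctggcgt
This says only that those letters are not in the window. The CRE motif (TGACGTCA), which 1.85% of all windows hold, was in none of the 8 member windows. Short motifs were common: ETS (GGAAG) lay in 5 of the 8 windows and in 71.9% of all, Sp1 (GGGCGG) in 5 and in 45%, and the KLF box in 3 and in 59.9%.

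PLAUR, the urokinase receptor, rose under both cytokines and fell under C5a. Control libraries held 37.7, 40.5 and 42.1 CPM, and TNF libraries 89.5, 100.2 and 93.2, the highest of the series. TNF raised it 2.36-fold (log2 1.24, SE 0.06, edgeR adjusted p = 2.71e-18). IL1b libraries, at 52.4, 56.7 and 56.6 CPM, lay between TNF and Control (log2 0.47, SE 0.07, edgeR adjusted p = 2.63e-07). C5a libraries, at 28.6, 28.7 and 29.5 CPM, were the lowest of the series (log2 -0.46, SE 0.07, edgeR adjusted p = 4.64e-06). Epinephrine libraries (38.2, 43.5 and 43.1 CPM) overlapped Control and did not pass. The vesicle groups ran from 29.7 to 40.4 CPM, overlapped each other and gave no call against EV-Control. EV-Control, at 35.5, 34.8 and 29.7 CPM, lay below Control (log2 -0.26, SE 0.07, edgeR adjusted p = 0.00503), and this call was lost without EV-Control 3 (0.0982).

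The PLAUR promoter is the other member window with an AP-1 match, in capitals, which begins at -186. It is the RefSeq window 19:43670120-43670419 of GRCh38.p14, minus strand.
PLAUR: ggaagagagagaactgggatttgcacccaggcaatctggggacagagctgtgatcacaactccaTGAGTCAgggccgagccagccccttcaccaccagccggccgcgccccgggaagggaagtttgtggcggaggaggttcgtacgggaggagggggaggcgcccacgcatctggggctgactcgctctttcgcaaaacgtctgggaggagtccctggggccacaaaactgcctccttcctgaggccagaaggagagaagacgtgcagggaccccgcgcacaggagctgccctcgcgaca
The F3 and PLAUR windows share no kappaB match, and the TFPI, PROCR, SERPINE2 and PLAU windows hold neither motif.

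PLAT, the tissue activator of plasminogen, changed under TNF and in 2 vesicle comparisons. TNF libraries held 204, 204 and 199 CPM against 120.1, 113 and 113 in Control. The rise was 1.75-fold (log2 0.81, SE 0.06, edgeR adjusted p = 9.13e-15), and no other library of the series exceeded 134 CPM. IL1b (114, 109 and 124 CPM), C5a (101, 111 and 109 CPM) and Epinephrine (112, 134 and 126 CPM) did not pass, though Epinephrine did without Epinephrine 1 (log2 0.18, edgeR adjusted p = 0.0157). Against EV-Control (119, 108 and 119 CPM), EV-TNF libraries held 101, 101 and 102 CPM, lower without overlap (log2 -0.19, SE 0.05, edgeR adjusted p = 0.00315). EV-IL1b libraries, at 93.9, 103 and 101 CPM, were lower as well (log2 -0.22, SE 0.05, edgeR adjusted p = 0.000583). EV-C5a and EV-Epinephrine overlapped EV-Control, and EV-Control overlapped Control. All groups below TNF overlapped their neighbours in the order of levels.

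PLAU, which encodes urokinase, was highest in EV-Control. Control libraries held 225, 229 and 243 CPM. Epinephrine libraries, at 276, 309 and 319 CPM, lay above them (log2 0.38, SE 0.05, edgeR adjusted p = 1.89e-07). TNF libraries, at 289, 297 and 279.8 CPM, did too (log2 0.31, SE 0.05, edgeR adjusted p = 1.61e-06). Under scaling by total counts the TNF difference was 0.03 (edgeR adjusted p = 0.542). IL1b libraries, at 202, 200.4 and 188 CPM, were the lowest of the series (log2 -0.23, SE 0.05, edgeR adjusted p = 0.00018). C5a libraries, at 212, 204 and 217 CPM, did not overlap Control but missed the threshold (log2 -0.13, edgeR adjusted p = 0.0517). They passed it with relative log expression factors (edgeR adjusted p = 0.0375) and with DESeq2 (0.0454).

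EV-Control libraries held 418, 315 and 274 CPM of PLAU, a wide spread whose lowest library still exceeded Control (log2 0.53, SE 0.10, edgeR adjusted p = 0.000294). A fit of only those 6 libraries gave an adjusted p of 0.126. EV-TNF libraries, at 259.8, 253 and 233 CPM, lay below EV-Control (log2 -0.43, SE 0.12, edgeR adjusted p = 0.0425). EV-IL1b libraries held 250.1, 247 and 257 CPM (log2 -0.42, SE 0.12, edgeR adjusted p = 0.0472), also without overlap. The call was lost in both comparisons without EV-Control 2 (0.0634 and 0.0672) and without any 1 of the EV-TNF or EV-IL1b libraries. EV-Epinephrine libraries held 234, 251 and 255 CPM, below EV-Control (log2 -0.44, SE 0.12, edgeR adjusted p = 0.0292), and this was lost without any 1 of its own libraries. In fits of only the groups compared, the edgeR adjusted p was 0.276 for EV-TNF, 0.271 for EV-IL1b and 0.205 for EV-Epinephrine. Without a low-count filter it was 0.0812, 0.0855 and 0.0527 in the same order. Under total-count scaling EV-IL1b lost its call too (edgeR adjusted p = 0.0543). The log2 differences also moved when 1 library was left out. They ran from -0.553 to -0.244 (EV-TNF), -0.539 to -0.229 (EV-IL1b) and -0.567 to -0.255 (EV-Epinephrine). EV-C5a libraries, at 300.3, 283 and 309 CPM, overlapped EV-Control. In the order of levels, EV-Control, Epinephrine, EV-C5a and TNF overlapped, EV-IL1b lay below TNF, and C5a and IL1b lay below all others.

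**Figure D2:**
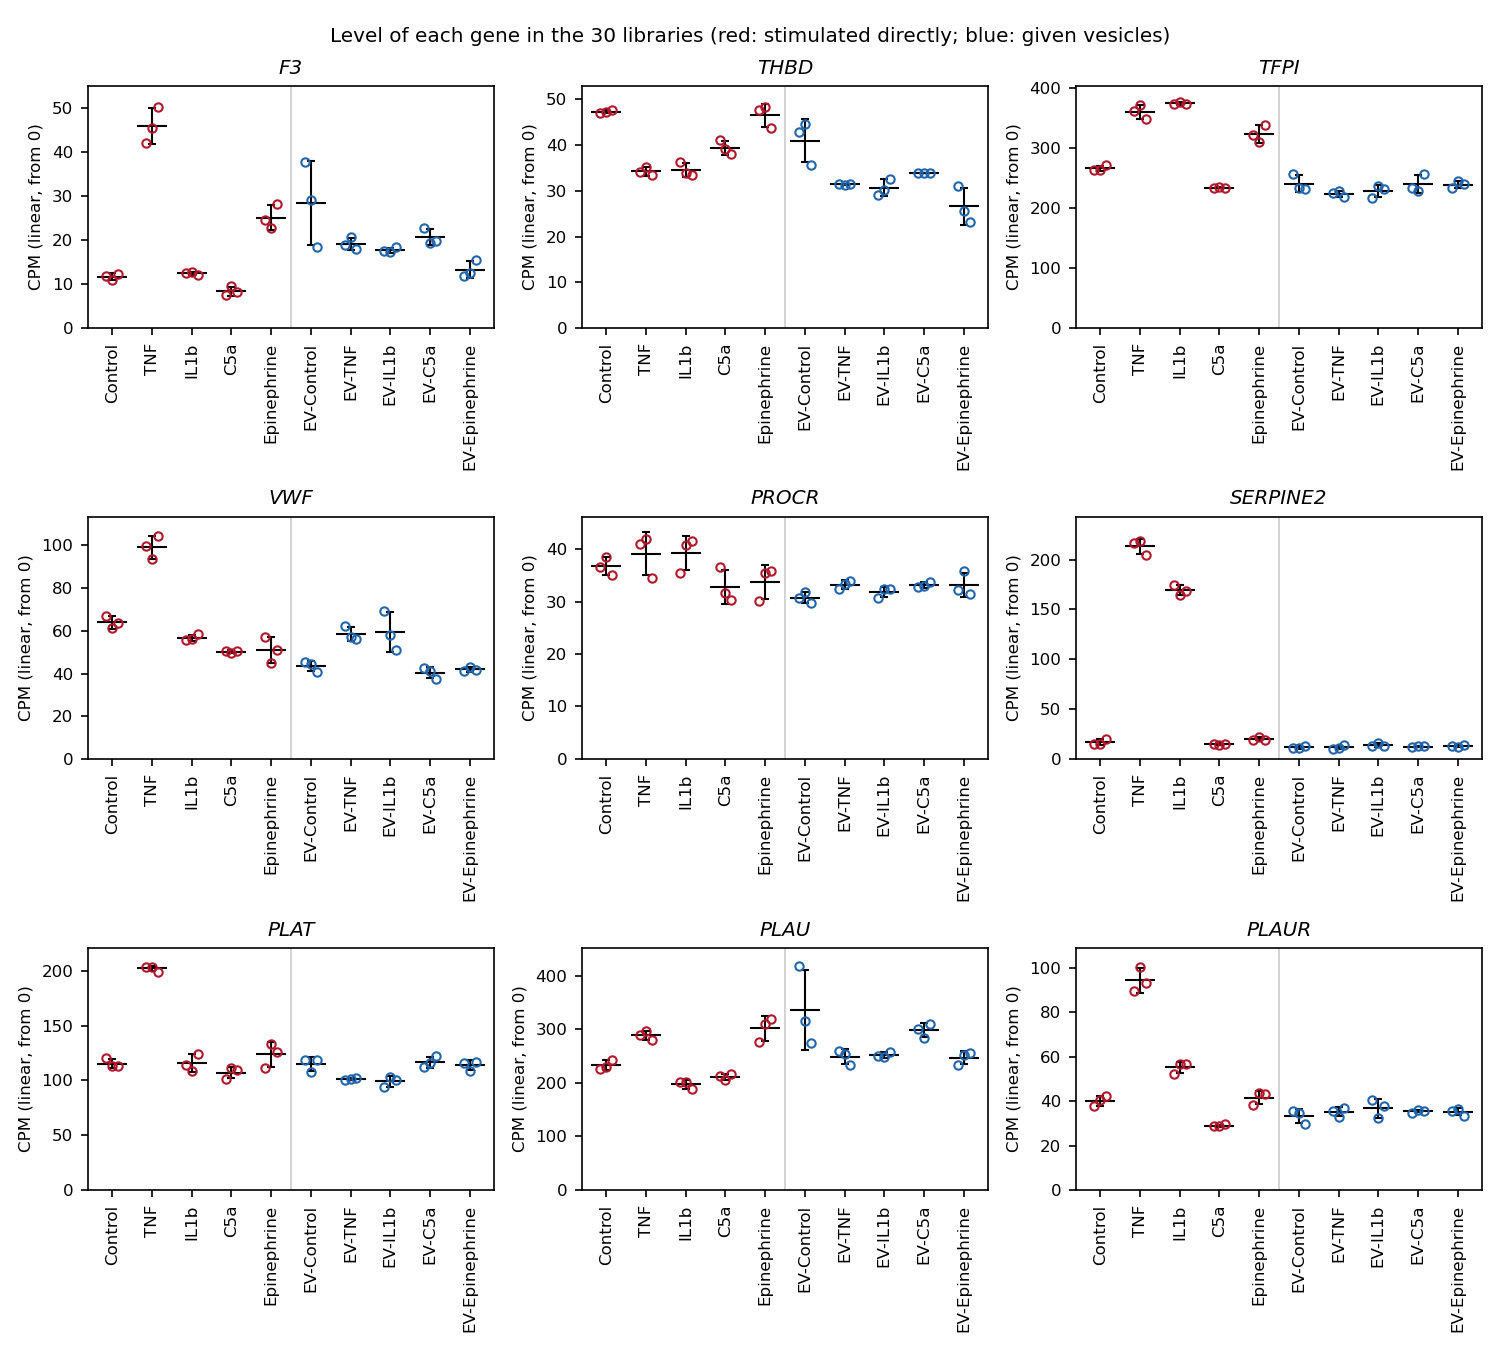
CPM of each gene (linear axes from 0) in the 10 groups, 1 open circle per library, with the mean and SD (n = 3) in black; red groups were stimulated directly and blue groups received vesicles. The TNF libraries stand highest for F3, VWF, SERPINE2, PLAT and PLAUR, and the EV-Control libraries spread from 18.5 to 37.6 CPM for F3 and from 274 to 418 for PLAU.

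Counted over the members, TNF changed 8 of 9 (7 higher, 1 lower), where 52.7% of all 15908 genes tested were called (27.5% higher, 25.3% lower). IL1b changed 6 (3 higher, 3 lower), against 46.6% of genes (24% and 22.6%). The members' median log2 fold change was 0.63 under TNF and 0.10 under IL1b, beside -0.01 over all genes in both. With so many genes called, the number of members called under the cytokines is a description of them.

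C5a changed 5 members, all lower, against 22.6% of genes (11.8% higher, 10.8% lower), and the members' median was -0.18. Epinephrine changed 5 (4 higher, 1 lower), against 25.2% (13.5% and 11.8%), with a median of 0.11. The 4 comparisons share the Control libraries, so they are not independent of each other.

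Set directly against TNF, IL1b cells held less of 6 members and more of none, where 41.4% of genes were called (19.9% higher, 21.4% lower in IL1b). F3 differed most (log2 -1.88, SE 0.10, edgeR adjusted p = 4.45e-18). PLAT (-0.80), VWF (-0.79), PLAUR (-0.76), PLAU (-0.54) and SERPINE2 (-0.33) were lower too, with edgeR adjusted p from 2.85e-14 to 2.18e-05. THBD, TFPI and PROCR did not pass, but under total-count scaling, which raised the median of all genes to 0.21, they were higher in IL1b by 0.21, 0.26 and 0.21. In that scaling SERPINE2 lost its call (log2 -0.13, edgeR adjusted p = 0.0581).

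Vesicles of TNF-treated cells changed 4 members (1 higher, 3 lower), where 13.3% of 15918 genes were called (5.9% higher, 7.42% lower). Vesicles of IL1b-treated cells changed 4 (1 higher, 3 lower) against 14.6% (6.49% and 8.14%), and in both comparisons VWF was the higher one and THBD, PLAT and PLAU the lower ones. EV-Epinephrine changed 3, all lower (F3, THBD and PLAU), against 19.7% (9.12% and 10.5%). EV-C5a changed none by edgeR at the adjusted threshold, with 0.0503% of genes called (0.0126% higher, 0.0377% lower). At an unadjusted p under 0.05 it was 1 member, THBD, where 1202 of all 15918 genes passed. DESeq2 called 0 members and 6 of all genes. These 4 comparisons share the EV-Control libraries, which had the largest SD in CPM of any group for F3, THBD and PLAU.

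EV-Control differed from Control in 8 members (2 higher, 6 lower), where 21.9% of 16691 genes were called (12.1% higher, 9.8% lower). F3 and PLAU were higher and THBD, TFPI, VWF, PROCR, SERPINE2 and PLAUR lower. The count was 4 without EV-Control 3 and 5 in a fit of only those 6 libraries. The labels do not say whether the direct and vesicle cultures ran side by side, so a difference between the experiments and an effect of control vesicles cannot be told apart.

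The difference between the vesicle response and the direct response to the same stimulus was tested in 1 fit of all libraries. For TNF it passed in 6 members, all with the vesicle response lower, where 44.7% of genes were called (3561 higher and 3907 lower of 16691). SERPINE2 differed most (log2 -3.63, SE 0.13, edgeR adjusted p = 3.05e-31), followed by F3 (-2.54, SE 0.23, edgeR adjusted p = 2.22e-09). For IL1b it passed in 6 (1 with a higher and 5 with a lower vesicle response), against 35.2% of genes (2827 higher and 3052 lower). VWF was the one whose vesicle response was higher (log2 0.62, SE 0.10, edgeR adjusted p = 4.7e-06).

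For epinephrine the difference passed in 4 members, all with the vesicle response lower, against 24.2% of genes (1950 higher and 2084 lower). F3 led them (log2 -2.21, SE 0.24, edgeR adjusted p = 1.87e-07). THBD, which overlapped Control under epinephrine itself, had a lower vesicle response by 0.60 (SE 0.11, edgeR adjusted p = 1.04e-05). For C5a it passed in 2 members, each with the vesicle response higher, against 11.9% of genes (980 higher and 1009 lower). They were PLAUR at 0.56 (SE 0.10, edgeR adjusted p = 7.74e-05) and TFPI at 0.18. The TFPI call (edgeR adjusted p = 0.0368) was lost in most fits that left out a library, with an adjusted p of up to 0.257 without EV-C5a 3.

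**Figure D3:**
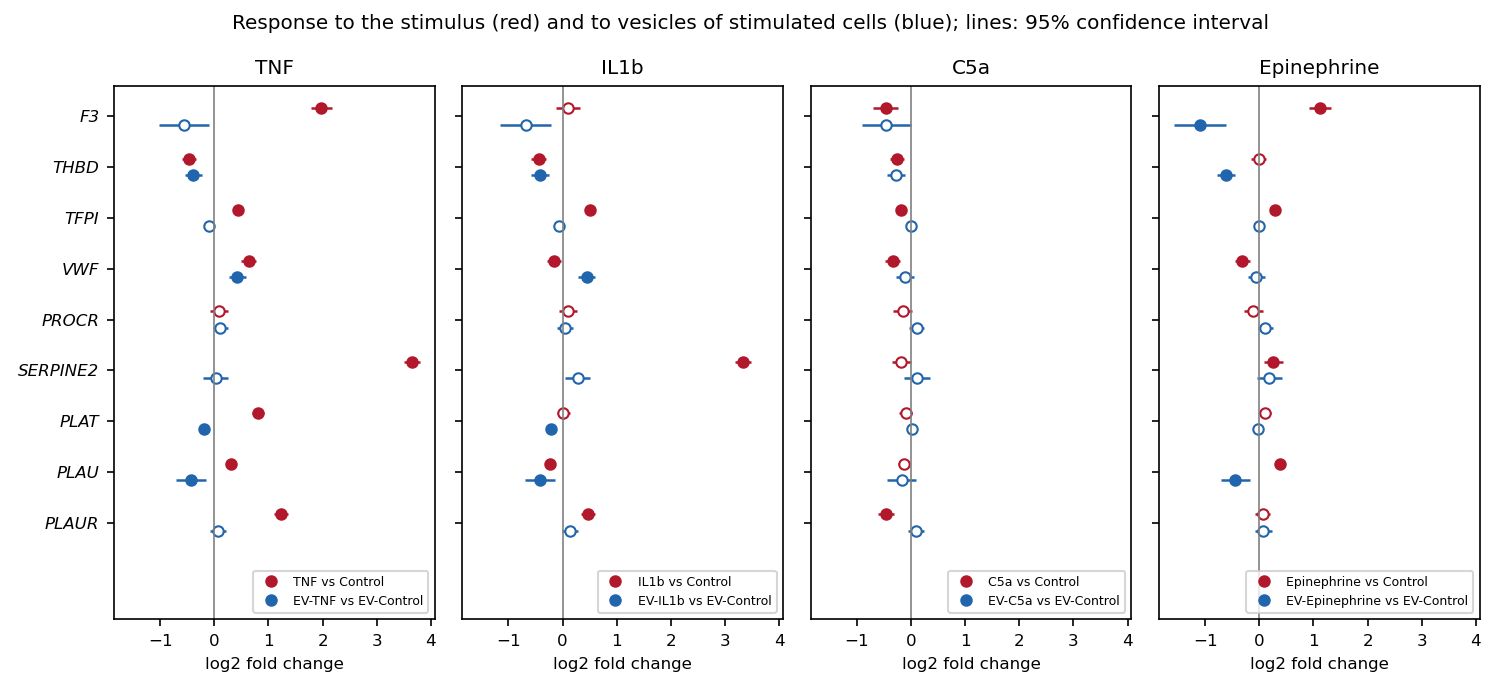
Log2 fold change of each gene, with its 95% confidence interval, for each stimulus against Control (red) and for vesicles of cells so stimulated against EV-Control (blue); filled circles have an edgeR adjusted p under 0.05 and open circles do not. F3 lies at 1.12 for Epinephrine and at -1.10 for EV-Epinephrine, and SERPINE2 lies at 3.65 for TNF, with no call for EV-TNF.

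The other genes of haemostasis were counted from a list of 63, of which 42 were expressed enough to be tested in every fit. TNF raised 17 and lowered 16 of them (52.7% of all genes tested were called), IL1b 12 and 15 (46.6%), C5a 5 and 15 (22.6%), and Epinephrine 13 and 9 (25.2%). TFPI2, a relative of TFPI, went from 79.2 to 322 CPM in TNF cells (log2 2.02) and to 219.6 in IL1b cells (log2 1.48). PTGS2, an enzyme of prostaglandin synthesis, changed by 3.28 under TNF and by 4.94 under IL1b. THBS1 changed by 1.48 under TNF, and FGG, the fibrinogen gamma chain, by 1.41 under IL1b.

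In C5a cells MMRN1 (log2 1.40) was higher and EDN1 (-1.01), F2RL1 (-0.93) and PTGIS (-0.74), the prostacyclin synthase, lower. In Epinephrine cells FGG (1.76) and MMRN1 (1.22) were higher and PTGIS (-1.37) and EDN1 (-0.72), which encodes endothelin 1, lower. Between the cytokines, IL1b cells held more PTGS2 (1.66) and less EDN1 (-1.28), THBS1 (-1.18) and F2RL1 (-1.10), and 10 genes of the list were higher and 15 lower (41.4% of all genes were called).

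EV-TNF raised 7 and lowered 10 genes of the list (13.3% of all genes tested were called), EV-IL1b 6 and 11 (14.6%), and EV-Epinephrine 6 and 10 (19.7%). EV-C5a called none by edgeR (0.0503% of all genes tested were called) and 0 by DESeq2. At an unadjusted p under 0.05 it was 4 of the 42, where 1202 of all 15918 genes passed. TFPI2, raised by both cytokines directly, was lower in EV-TNF (log2 -0.62), EV-IL1b (-0.65) and EV-Epinephrine (-0.89) than in EV-Control. Its mean in Epinephrine cells (125 CPM) also lay above that in Control (79.2 CPM). NT5E was higher in EV-TNF (0.56) and EV-IL1b (0.63), as was PDGFB (0.61 and 0.57). This was not particular to these vesicles. In EV-Epinephrine, where the naming rule did not select them, NT5E averaged 118.9 CPM against 74.3 in EV-Control, and PDGFB 36.3 against 25.1. MMRN1 was higher in EV-TNF (0.65) and PTGS1 lower in EV-IL1b (-0.57). In EV-Epinephrine FGG (0.81) was higher and SERPINB8 (-0.73) lower. EV-Control against Control gave 7 higher and 10 lower (21.9% of all genes), led by lower PTGIS (-1.17), EDN1 (-1.09), PDGFB (-0.88) and MMRN2 (-0.74). Adjusted p for the log2 differences of genes named here was at most 0.0153 (edgeR).

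As a description of likeness, Pearson's r of log2 CPM was taken over the 30 libraries between each member and 11057 other genes, libraries that share groups and stimuli. SERPINE2 was most like CXCL6 (0.978), DESI1 (0.974) and IRAK3 (0.972). F3 was most like PPP1R3B (0.97), ERRFI1 (0.952) and CASP4LP (0.929). PLAUR was most like CKAP4 (0.961), ITGA5 (0.96) and UBE2E1 (0.955), and PLAT like MVP (0.965), SELENOM (0.96) and LRRFIP2 (0.951). TFPI stood closest to DNER (0.958), PAPSS2 (0.949) and CA12 (0.948), and VWF to ASS1 (0.912), MYL12A (0.903) and PDLIM5 (0.902). PLAU stood closest to CLK1 (0.911), NRARP (0.898) and RHOV (0.89). THBD (SLC3A2 0.821, COL4A5 0.82 and NSG1 0.815) and PROCR (AGTRAP 0.796, SLC43A2 0.772 and PRDX4 0.763) had the least close partners. Among the members, PLAUR and SERPINE2 (0.895) and TFPI and SERPINE2 (0.888) were the closest pairs, and F3 and PLAU stood at 0.785.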

How the data were processed

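The authors deposited 1 table of raw read counts per gene, with no normalization; the submitters' processing notes name FastQC, STAR, DESeq2, R 4.4.1 and hg38, and the counting program and strand setting are not given in the sources used here. Of 63147 lines, 4 had no gene ID (at most 0.0016% of a library) and were left out, as were 2 genes without counts; 3 repeated IDs with equal counts were kept once, and every count column mapped to a sample. Members and gene lists were chosen with earlier results of these data known. Counts were filtered with filterByExpr, scaled with TMM factors (trimmed mean of M-values) and tested with edgeR 4.0.16 (R 4.3.3; quasi-likelihood, robust, two-sided, Benjamini-Hochberg over all genes, threshold 0.05) in fits of the 15 direct, the 15 vesicle and all 30 libraries; the last served EV-Control against Control, the differences between responses, and the CPM levels. SE is the log2 fold change over the root of its F. The members were named always; of the wider list up to 4 genes per comparison were named, ranked by size of change among called genes whose groups did not overlap and whose higher group averaged 5 CPM or more, and 3 like genes per member. On simulated TNF and Control counts (15373 genes) edgeR called 160 of 200 genes changed by log2 1 up or down, with 10 false calls. Smaller changes, or changes in as many genes as TNF changed, were not simulated, so these rates do not carry over to them. Alternatives were relative log expression or total-count scaling, DESeq2 1.42.0, no filter or one at a mean of 50 counts, a minimum log2 fold change of 1, a replicate block, other sets of libraries and leaving out each library. A count of 0 allows up to 3 counts; without molecular identifiers this covers counting error only. Promoter windows are RefSeq's; 6 members had one. Results for 1 gene that the naming rule selects are not reported here.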

Additional observations from a re-analysis of the deposited data

Results flagged for a closer look

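In 18 cases a member's response to vesicles differed, by edgeR's test of the difference itself, from its response to the stimulus. Over all genes tested, the same test called 44.7% for TNF, 35.2% for IL1b, 11.9% for C5a and 24.2% for epinephrine. The number of cases is therefore a description of the members. The values below are the vesicle response minus the direct response on the log2 scale. For TNF they were -2.54 for F3, -0.54 for TFPI, -3.63 for SERPINE2, -0.995 for PLAT, -0.742 for PLAU and -1.16 for PLAUR. For IL1b they were -0.773 for F3, -0.566 for TFPI, 0.62 for VWF, -3.04 for SERPINE2, -0.219 for PLAT and -0.323 for PLAUR. Of these, F3 did not pass when only its own 4 groups were fitted (edgeR adjusted p = 0.0838). PLAT did not pass under total-count scaling (0.164), without IL1b 3 (0.0745) or without EV-IL1b 1 (0.0546). PLAUR did not pass under total-count scaling (0.06) or without EV-IL1b 2 (0.0711). C5a gave 0.181 for TFPI and 0.562 for PLAUR. Here TFPI did not pass without a low-count filter (edgeR adjusted p = 0.103) or in most fits that left out a library. Epinephrine gave -2.21 for F3, -0.596 for THBD, -0.288 for TFPI and -0.817 for PLAU. Groups of 3 libraries are too small for a test of single outlying libraries.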

How the results depend on the processing

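Of 126 member values, 67 passed as reported, 18 passed only under an alternative and 41 under none. The last were left out of the table of alternatives after its values had been seen, and 51 of their 669 recomputed values changed sign, none of them past the threshold. Of the 67, 19 lost the threshold in at least 1 alternative other than a minimum fold. Asking for a log2 fold change over 1 left 3 members for TNF, 1 each for IL1b, Epinephrine, IL1b against TNF, EV-Epinephrine and EV-Control, and 0 for C5a, EV-TNF and EV-IL1b. It left 3 for the difference between responses with TNF, 1 with IL1b, 1 with epinephrine and 0 with C5a. The share of all genes past that minimum was not computed, so these counts describe the members only. A fit of only the groups compared gave 1 member for EV-Epinephrine and 5 for EV-Control. Of all genes, it called 1271 higher and 1461 lower of 14817 for EV-Epinephrine, and 1830 and 1444 of 14854 for EV-Control. Without a low-count filter EV-C5a had 1 and the C5a difference 1. Of all genes, 15 were higher and 58 lower of 35761 for EV-C5a, and 854 and 922 of 38536 for the C5a difference. Leaving out 1 library gave 0 to 2 members for EV-C5a, 4 to 8 for EV-Control against Control and 1 to 2 for the C5a difference. It gave 3 to 6 for EV-TNF and for EV-IL1b, 2 to 3 for EV-Epinephrine, 4 to 6 for Epinephrine and 5 to 6 for IL1b. The IL1b difference had 5 to 7 and the epinephrine difference 4 to 6. The 6 for EV-TNF and for EV-IL1b came without EV-Control 3. There 1017 genes were higher and 1203 lower of 16350 for EV-TNF, and 1051 and 1283 for EV-IL1b. The 2 for EV-C5a came without EV-Control 3, where 35 genes were higher and 140 lower of 16350. The 4 for EV-Control against Control came without that library too, where 1890 were higher and 1383 lower of 17162. Without EV-C5a 3 the C5a difference had 1 member, where 744 genes were higher and 927 lower of 17153.

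The values that changed sign were not past the threshold in either fit. The TNF difference of VWF was 0.0835 under total-count scaling. Leaving out 1 library gave -0.0175 to 0.0501 for THBD and -0.0717 to 0.0805 for PROCR in IL1b against TNF, -0.00825 to 0.147 for THBD and -0.0651 to 0.0771 for PROCR in the TNF difference, and -0.306 to 0.00468 for PLAU in the IL1b difference, the last passing at -0.306. Scaling by totals put the median over all genes at -0.288 for TNF, with 22.7% of calls higher against 52.1%. For IL1b 38.6% were higher against 51.5%, for IL1b against TNF 76.1% against 48.1%, and for the TNF and IL1b differences 76.7% against 47.7% and 62.4% against 48.1%. The cause of each change was not tested.

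Same-numbered libraries' deviations from their group means correlated at -0.0393 to 0.0259. Values this near 0 do not settle whether the replicate numbers pair the libraries, and the reported fits used no pairing. All libraries were closest to their own number in EV-IL1b and EV-Epinephrine against EV-Control only. With a replicate block, the counts of members stayed within 1.5 times, PLAU did not pass in EV-TNF (-0.427) and EV-IL1b (-0.409), and VWF passed in the epinephrine difference (0.271). The F3 difference in EV-C5a (-0.46) had a 95% interval of -0.91 to 0.0025, so a fall of that size is not shown to be absent.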
